A study of Mus musculus with 4 samples.

Results

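The Zscan4 family of mouse ES cells was examined on the arrays through every non-control probe whose gene name begins with Zscan4. These were 7 of 39429 probes and carried 4 gene symbols, Zscan4a with 2 probes, Zscan4c with 3, and Zscan4e and Zscan4f with 1 each. All 7 were well above background on each of the 4 arrays and passed the filter on low signals, which 27706 probes passed. The arrays held E14tg2a mouse ES cells, a single established line grown without feeder cells on gelatin with leukemia inhibitory factor. One array held cells that were not transfected (untreated, 0 h), one held cells 72 h after transfection with control siRNA, and the remaining 2 held cells 48 h and 72 h after transfection with a mix of 2 siRNAs against Rif1, as the methods state. Rif1 is a regulator of DNA replication timing and a chromatin-binding protein, and the comparison asked which transcripts change when it is depleted. Each condition was measured on 1 array of 1 culture, which leaves every difference without a replicate check and without a test. The 4 arrays include no control siRNA array at 48 h. In comparisons with the 48 h array, siRNA and time in culture therefore cannot be told apart.

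Zscan4 proteins combine a SCAN domain, through which such proteins pair, with DNA-binding zinc fingers. The genes are transcribed in the late 2-cell embryo, and in ES cell cultures only a small and changing fraction of the cells expresses them at a time, together with other genes of the 2-cell stage (2C genes). The proteins are known for telomere maintenance and genome stability in ES cells. On arrays of whole cultures, a larger share of Zscan4-positive cells and more Zscan4 RNA per positive cell cannot be told apart.

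The member probes lie on mm9 chromosome 7 between positions 11379626 and 11987667, a span of 608 kb. In the order of RefSeq genes (GRCm38.p6), 41 genes run from the first to the last Zscan4 gene. Of these, 9 are Zscan4 genes or pseudogenes, with 4 protein coding genes (Zscan4b, Zscan4c, Zscan4d and Zscan4f) and 5 pseudogenes, among them Zscan4a, which is transcribed, and Zscan4e. The symbols Zscan4b and Zscan4d name no probe of the array. Their transcripts are, however, listed in the array files for probes of other members. The Zscan4f probe is listed for the transcripts of Zscan4f, Zscan4d, Zscan4c and Zscan4a, and the Zscan4e probe for its own transcript and those of Zscan4b, Zscan4d and Zscan4f. Of 6 RefSeq transcripts listed for the members, 5 matched a symbol in the table of RefSeq genes, and that of Zscan4e did not. A signal is therefore given for the probe, and its share among the near-identical genes is uncertain. No annotation of mm9 was used here, so the exon or UTR under a probe is not stated.

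Sequences of the probes show how closely the members can be told apart. Probe A_52_P363843 (Zscan4c; mm9 chr7:11594425-11594484, plus strand) is listed for transcripts of Zscan4c, Zscan4d and Zscan4a, and it can be read in 2 of its 3 forward frames without a stop codon. It is shown whole, 60 bases from 5′ to 3′, because it gave the largest difference at both times of Rif1 siRNA.
A_52_P363843: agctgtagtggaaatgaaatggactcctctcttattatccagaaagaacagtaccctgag

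The Zscan4a probe A_55_P2007016 (chr7:11379679-11379738, minus strand) and the Zscan4c probe A_55_P2019533 (chr7:11595751-11595810, plus strand) are nearly one sequence. They matched at 56 of 58 overlapping bases, with a shared run of 53 bases. Shown are 30 bases of each, with the bases that differ in capitals.
A_55_P2007016: tgcattgcctcttcagacatctcatATcat
A_55_P2019533: tgcattgcctcttcagacatctcatGCcat

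The Zscan4e probe A_55_P2003713 (chr7:11891736-11891795, minus strand) holds, at its bases 25 to 47, the target of the reverse primer of the primer pair that the study designed for several Zscan4 genes at once. This stretch is shown with the 23 bases of the primer site in capitals.
A_55_P2003713: agtATCTAACATCCTCAGCAGAGACTggta

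Among the other probes of the array, 1 shared a word of 16 bases or more with a member. This was A_55_P2001523, a probe without a gene name (chr7:11650658-11650717), which matched the Zscan4f probe A_55_P2007986 (chr7:11987608-11987667, plus strand) at 52 of 58 overlapping bases. The 2 probes are shown over 30 aligned bases, with differing bases in capitals.
A_55_P2007986: AaGtaaattgtactGtcccaatAatgatat
A_55_P2001523: TaCtaaattgtactTtcccaatGatgatat

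Apart from the pair of Zscan4a and Zscan4c probes above, no member pair shared a run longer than 9 bases, so most probes read separate stretches of the transcripts.

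Promoters were available from RefSeq (GRCm38.p6) for 4 members, Zscan4b, Zscan4c, Zscan4d and Zscan4f, of which Zscan4c and Zscan4f have probes. They are shown because the probes of the family moved together. Over the 250 bases before the annotated start, Zscan4b and Zscan4f were 94.8% identical in aligned columns, Zscan4c and Zscan4d 88.9%, and Zscan4d and Zscan4f, the least alike pair, 73.6%. A run of 48 bases was common to all 4. The last 100 bases before each start are given 5′ to 3′ in the direction of transcription, with TATAAA and CCAAT in capitals. They lie at chr7:10905051-10905150 (Zscan4b, minus strand), chr7:11005645-11005744 (Zscan4c, plus strand), chr7:11166149-11166248 (Zscan4d, minus strand) and chr7:11397815-11397914 (Zscan4f, plus strand).
Zscan4b: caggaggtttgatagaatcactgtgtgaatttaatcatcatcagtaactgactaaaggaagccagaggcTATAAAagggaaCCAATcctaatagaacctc
Zscan4c: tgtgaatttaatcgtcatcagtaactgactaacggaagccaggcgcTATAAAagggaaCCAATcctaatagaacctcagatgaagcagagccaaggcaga
Zscan4d: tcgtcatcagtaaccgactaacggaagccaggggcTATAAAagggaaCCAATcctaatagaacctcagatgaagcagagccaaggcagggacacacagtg
Zscan4f: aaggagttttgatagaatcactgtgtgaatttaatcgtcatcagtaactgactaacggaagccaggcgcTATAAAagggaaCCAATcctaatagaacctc

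Both motifs, which do not overlap, were found once in each of the 4 windows, on the sense strand. TATAAA began 31 bases before the start in Zscan4b and Zscan4f, 54 before it in Zscan4c and 65 before it in Zscan4d. CCAAT followed at 19, 19, 42 and 53 bases before the start in the same genes. The annotated starts thus differ while the 2 motifs keep their distance. On the sense strand, TATAAA was in 7.59% and CCAAT in 19.1% of 32851 promoter windows of this length. On either strand the shares were 12.4% and 33.8%.

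Rif1, the targeted gene, was read by 1 probe (A_55_P2015964). Its level, the processed signal divided by the 75th percentile of its array, was 5.55 without transfection and 5.42 with control siRNA, and Rif1 siRNA left 2.15 at 48 h and 4.15 at 72 h. The Rif1 signal at 48 h was thus 0.396 of that with control siRNA, and at 72 h it was 0.765 of it.

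The 7 Zscan4 probes placed the 4 arrays in the same order. This is a description, since the share of all tested probes with that order was not counted and some members share transcripts. In each, the level was lowest in untreated cells, higher with control siRNA, far higher 48 h after Rif1 siRNA and highest at 72 h. For the Zscan4a probe A_65_P06115 (chr7:11379626-11379685, minus strand), the untreated level was 0.937 and the control siRNA level 2.02, and Rif1 knockdown gave 33.8 at 48 h and 40.0 at 72 h. For the other Zscan4a probe, A_55_P2007016, they were 1.38, 3.02, 51.4 and 60.8 in the same order. On both probes the 2 arrays of Rif1 knockdown were above the control siRNA array by 16.7-fold or more.

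Zscan4c, the member whose locus is used for reporters of the Zscan4-positive state, was read by 3 probes. Probe A_52_P363843 had levels of 0.221, 0.465, 9.43 and 11.2 from untreated cells to 72 h of Rif1 siRNA. A_55_P2007017 (chr7:11595690-11595748, plus strand), the member probe listed for Zscan4c alone, had levels of 0.987, 2.29, 39.3 and 49.5. A_55_P2019533 had levels of 1.50, 3.31, 53.1 and 62.8. The 3 probes differed in brightness but kept the same order of conditions.

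The Zscan4e probe A_55_P2003713 had levels of 2.49, 4.95, 77.9 and 85.5 in the same order. The Zscan4f probe A_55_P2007986 had levels of 3.33, 6.84, 81.4 and 89.3. These were the brightest member spots, and none of the 28 member spots was saturated. The highest raw signal was 22.5% of the saturation value.

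**Figure D1:**
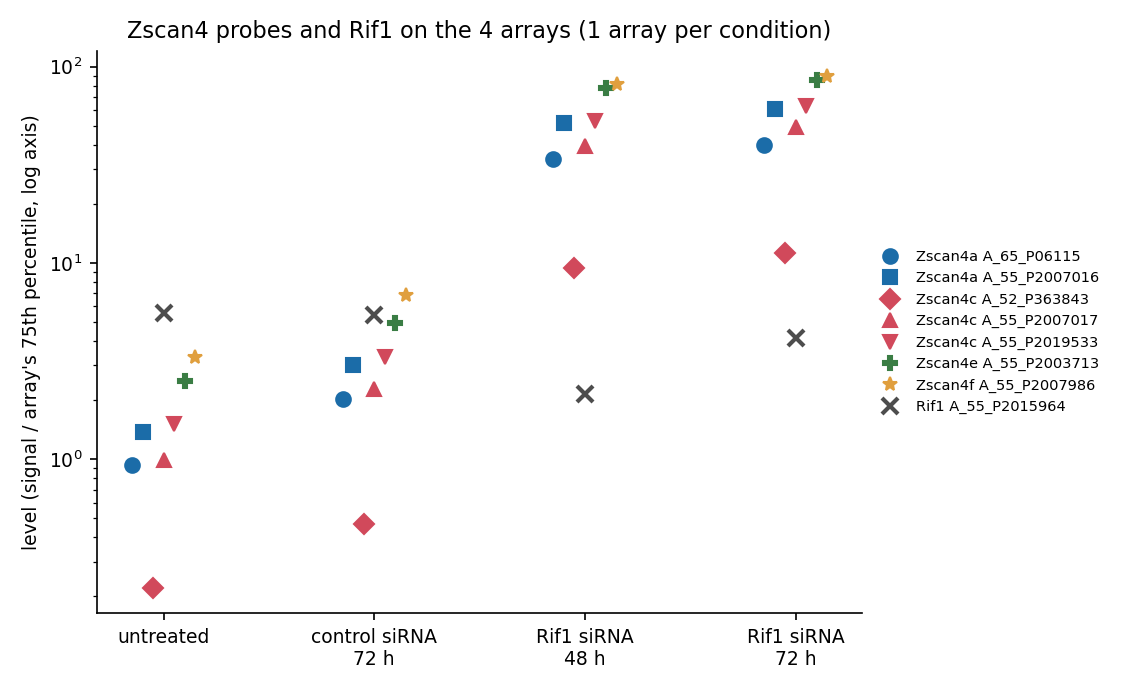
Level (processed signal over the 75th percentile of its array, log axis) of the 7 Zscan4 probes and of the Rif1 probe on the 4 arrays, 1 point per probe and array, with no error bars since each condition has 1 array. Every Zscan4 probe stands above its own control siRNA level at both times of Rif1 siRNA, whereas Rif1 falls from 5.42 to 2.15 at 48 h and lies at 4.15 at 72 h; levels of different probes are not comparable with each other.

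At 72 h of Rif1 siRNA against control siRNA at 72 h, all 7 probes were over 2-fold higher, beside 2.83% of the 27706 probes tested. The median log2 difference was 4.30 (a fold of 19.7; SD over probes 0.28), beside -0.07 over all probes measured on both arrays (SD 0.51). The probes ranged from 3.71 for Zscan4f (13.1-fold) through 4.11 for Zscan4e (17.3-fold) to 4.59 for the Zscan4c probe A_52_P363843 (24.0-fold). The 2 Zscan4a probes, at 4.30 and 4.33, and the other Zscan4c probes, at 4.44 and 4.25, lay between them. Averaged by gene, the fold was 19.9 for Zscan4a and 21.5 for Zscan4c. Only 33 tested probes had a larger difference than the highest member, and 146 had a larger one than the lowest.

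At 48 h of Rif1 siRNA against control siRNA, all 7 probes were again over 2-fold higher, beside 3.17% of probes tested. The median log2 difference was 4.06 (16.7-fold; SD over probes 0.23), beside -0.07 over all measured probes (SD 0.52). Zscan4f was again lowest, at 3.57 (11.9-fold), and A_52_P363843 highest, at 4.34 (20.3-fold). Both comparisons share the control siRNA array.

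The probe with the dimmest control spot gave the largest difference and the probe with the brightest control spot the smallest, at both times. Among the 7 probes, A_52_P363843 had a control level of 0.465 and the Zscan4f probe one of 6.84. This is a description of 7 probes, some of which share transcripts. The near-identical Zscan4a and Zscan4c probes differed by little, at 4.33 and 4.25 at 72 h and at 4.09 and 4.00 at 48 h. The unnamed probe A_55_P2001523, which resembles the Zscan4f probe, had levels of 0.0876, 0.235, 5.98 and 6.22 in the same order of arrays, and a log2 difference of 4.73 at 72 h against control siRNA.

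Between 48 h and 72 h of Rif1 siRNA, the family moved little while the Rif1 signal rose 1.93-fold. All 7 Zscan4 probes were higher at 72 h, by 0.13 to 0.33 (log2), with a median of 0.24 (1.18-fold), and 0 of them by over 2-fold, beside 0.491% of probes tested. Over all probes measured on both arrays the median was -0.005 and the SD 0.29. Between 1636 and 5586 tested probes had a larger difference than a member. Zscan4e and Zscan4f had the smallest differences, both 0.13, and A_55_P2007017 (Zscan4c) the largest, 0.33. The image software estimates an error of up to 10.3% for a member spot, which gives 0.21 for a log2 difference of 2 such spots and does not cover the spread between cultures. Zscan4e and Zscan4f lay below that error of a single difference, and the other members, at 0.24 to 0.33, lay above it. The SD over probes was 0.07, which is a spread of probes and not of cultures. With 1 array each, the spread between cultures is not known, so the 2 times cannot be set apart for these genes.

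The family was also higher with control siRNA than in untreated cells. All 7 probes differed in this direction, by 0.99 (Zscan4e, 1.99-fold) to 1.21 (A_55_P2007017 of Zscan4c, 2.32-fold) on the log2 scale. The median was 1.11 (2.16-fold; SD over probes 0.07), beside -0.01 over all measured probes (SD 0.26). In this comparison 6 of the 7 probes were over 2-fold higher, beside 0.585% of probes tested, and the 7th, Zscan4e, lay just under 2-fold. Between 117 and 162 probes had a larger difference than a member. With untreated cells at 0 h and control siRNA cells at 72 h, transfection and time in culture cannot be told apart.

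Against untreated cells, the difference at 72 h of Rif1 siRNA was 4.75 for Zscan4f (26.9-fold) to 5.66 for A_52_P363843 (50.5-fold), with a median of 5.42 (42.7-fold). At 48 h it ran from 4.61 (24.5-fold) to 5.41 (42.6-fold), with a median of 5.17 (36.1-fold). All 7 probes were over 2-fold higher in both, beside 2.54% of probes tested at 72 h and 2.74% at 48 h. The choice of the baseline thus changes the fold of the family by about the 2.16-fold step between the arrays without Rif1 siRNA.

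**Figure D2:**
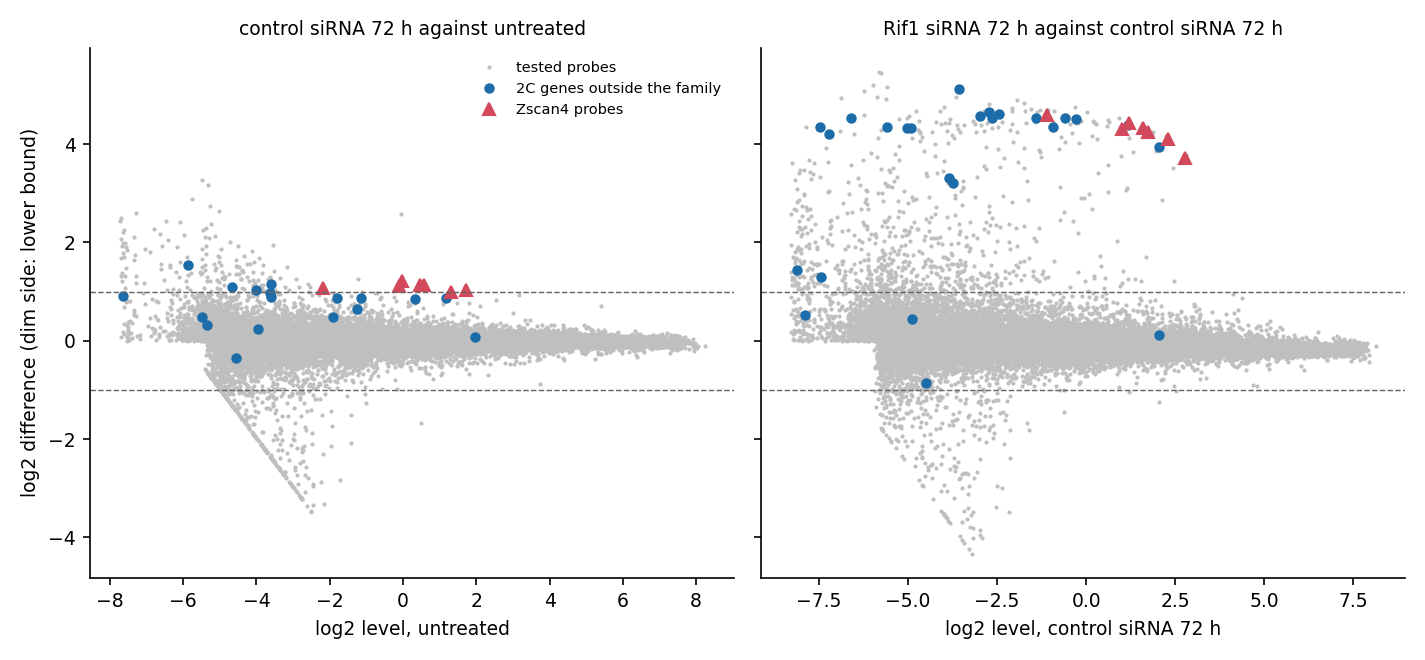
Log2 difference against the log2 level of the baseline condition for all tested probes (grey), 2C genes outside the family (blue) and the 7 Zscan4 probes (red), with dashed lines at 2-fold; a probe that is dim on one side is drawn at its lower bound. The left panel compares control siRNA with untreated cells, where the Zscan4 probes lie between 0.99 and 1.21, and the right panel Rif1 siRNA at 72 h with control siRNA, where they lie between 3.71 and 4.59.

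Probes near the family on chromosome 7 differed among themselves. Within 500 kb on each side of the member span, the array holds 26 other probes, of which 14 passed the filter. At 72 h against control siRNA, 3 of these 14 were over 2-fold higher, beside 2.83% of all tested probes, while 0 fell by as much, and their median log2 difference was -0.02. All 3 are among the 7 other probes inside the span of the member probes, whose median was 0.48, and none carries a gene symbol. They were A_55_P2113379, 3.28 kb from a Zscan4a probe, with 4.68 (log2), A_55_P2001523, 54.9 kb from a Zscan4c probe, with 4.73, and NAP061506-1 with 1.38. At 48 h, 2 of the 14 passed 2-fold, beside 3.17% of all tested probes, and NAP061506-1 had 0.86.

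A_55_P2113379 was not well above background in untreated cells, and its levels were 0.0365 with control siRNA, 0.911 at 48 h and 0.934 at 72 h. Next to these, Gm7789, an RNA gene between Zscan4b and Zscan4c, had levels of 0.362, 0.403, 0.579 and 0.564 from untreated cells to 72 h, a log2 difference of 0.48. The unnamed probe A_55_P2067483, 58.6 kb from the Zscan4e probe, had levels of 7.92, 7.31, 6.51 and 7.03, a difference of -0.06. Zik1, a zinc finger gene outside the span, had levels of 0.632, 0.695, 0.588 and 0.681, a difference of -0.03. Differences of 4 or more within the window thus stood beside probes at or near 0. Most of the vomeronasal receptor probes (Vmn1r genes) and both Nlrp4d probes in the window did not pass the filter.

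**Figure D3:**
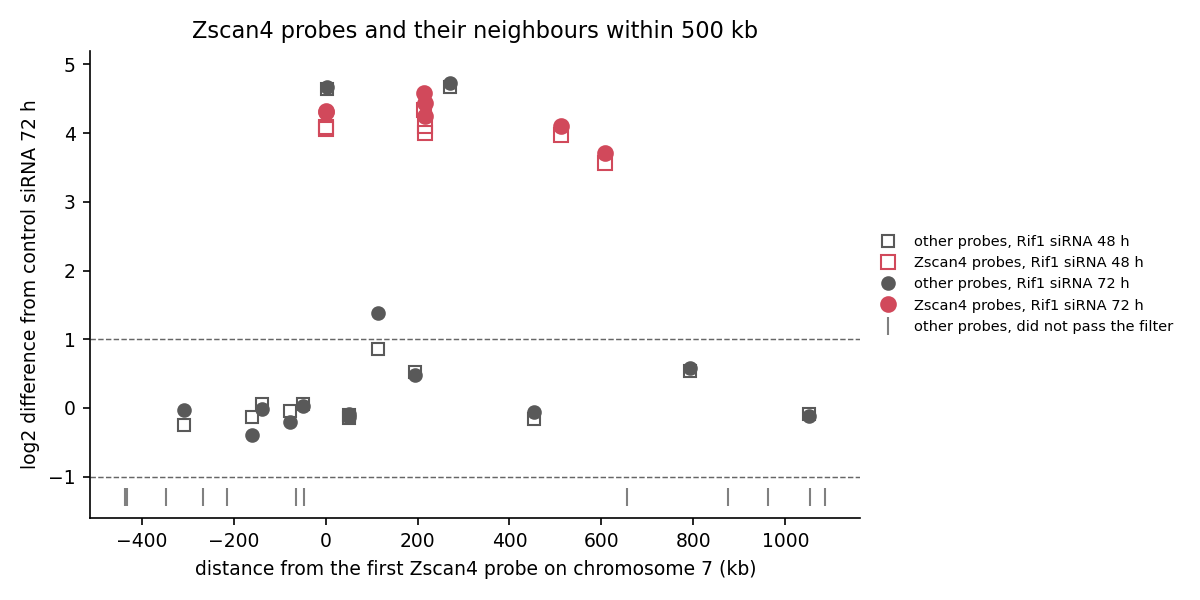
Log2 difference from control siRNA at 48 h (open squares) and 72 h (filled circles) of Rif1 siRNA for Zscan4 probes (red) and other probes (grey), by distance in kb from the first Zscan4 probe on chromosome 7; ticks mark probes that did not pass the filter, and dashed lines mark 2-fold. The Zscan4 probes and 2 unnamed probes lie above 3.5 at both times, and the other neighbours lie below 1.5.

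The pattern of the family over the 4 arrays was compared with that of every other probe well above background on all of them. Likeness was the Euclidean distance to the member medians over 3 log2 differences, control siRNA minus untreated and each Rif1 siRNA array minus control siRNA. Over 22518 probes the median distance was 6.13, and the members themselves lay at 0 to 0.774, with Zscan4f farthest. The nearest other named genes were Gm7963 on chromosome 5 (distance 0.252), Gm2016 and Gm2022 on chromosome 12 (0.306 and 0.310), BB713741 on chromosome 13 (0.324), Gm13043 on chromosome 4 (0.358) and the transcript CV783874 on chromosome 11 (0.369). Probes without a name made up the rest of the nearest 10, which were A_55_P2007495 on chromosome X (0.243), A_55_P2114318 on chromosome 7 (0.274), and A_55_P2074437 and A_55_P2074435 on chromosome 12 (0.313 and 0.334). Gm2016 had levels of 1.26, 2.28, 37.9 and 40.0 from untreated cells to 72 h, and Gm2022 had 1.25, 2.24, 40.8 and 46.8. Among the nearest 10, the step from untreated to control siRNA cells, which the distance includes, was 0.84 to 1.23 on the log2 scale.

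The 2C genes outside the family were taken from a list of 18 genes with 25 probes, all of which passed the filter. Tcstv1, Gm2022, Gm4340, Gm4303, Gm13043, Tmem92 and the Usp17l genes belong to families that the paper drew from its top transcripts raised by Rif1 knockdown. Zscan4 is among those families too. That choice rested on arrays of this series, so a high count for the list was in part fixed beforehand. It is no separate support. At 72 h against control siRNA, 21 of the 25 probes were over 2-fold higher while 0 fell by as much, and the same counts were found at 48 h. Over all tested probes, 2.83% were over 2-fold higher and 1.00% lower at 72 h, with 3.17% and 1.19% doing so at 48 h. Of the 25 differences from control siRNA, 18 were measured on both arrays and 7 were lower bounds, at either time. The 7 probes with lower bounds were well above background on the 2 Rif1 siRNA arrays only. They passed the filter through those arrays, so they could be counted as higher but not as lower. The median of the 18 was 4.36 at 72 h and 4.32 at 48 h, and with the bounds included it was 4.35 and 4.32. The Zscan4 probes, all measured, had medians of 4.30 and 4.06. Tcstv3 had the largest difference at 72 h, 5.12, with levels of 0.0393, 0.0838, 2.12 and 2.92 from untreated cells to 72 h. Tcstv1 was at 4.64, Gm4340 at 3.93, Gm4303 at 4.52, Gm13043 at 4.35, and Tmem92, a membrane protein gene, at 4.53. The deubiquitinase genes Usp17lb, Usp17lc, Usp17ld and Usp17le, and 1 of 2 Usp17la probes, were at 3.20 to 4.62, and Tdpoz2 and the brighter Tdpoz3 probe, of genes for BTB-domain proteins, were at 4.32 and at least 4.35. Gm2022 was at 4.38 and 4.50 on its 2 probes, the 2 Tdpoz4 probes at 4.21 and 4.53 as lower bounds, and the second Zfp352 probe at 4.35, also a lower bound. Smaller lower bounds were found for Spz1, at 1.29, and the dimmer Tdpoz3 probe, at 1.44. All of these were over 2-fold higher at 48 h too.

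Probes of the 2C list within 2-fold at 72 h were 1 of 2 for Tdpoz1, at -0.86, the other Usp17la probe, at 0.44, and 1 of 2 for Zfp352, at 0.12. For the second Tdpoz1 probe, dim with control siRNA, the lower bound was 0.53, which does not settle whether it passed 2-fold. The latter Zfp352 probe had levels of 3.91, 4.13, 3.56 and 4.48. With control siRNA against untreated cells, 14 probes of the list were above background on all arrays, and 3 of them were over 2-fold higher. With lower bounds included, 4 of 18 were, beside 0.585% of all tested probes. The 14 ran from -0.34 to 1.16 with a median of 0.87, beside 1.11 for the Zscan4 probes and -0.01 over all measured probes. Between 48 h and 72 h the median of the list was 0.02 over 25 probes, beside 0.24 for the Zscan4 probes.

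The list of regulators holds activators and repressors known to act on Zscan4 and 2C genes, 27 of its genes being on the array with 42 probes, 40 of which passed. At 72 h against control siRNA, 1 of the 40 was over 2-fold higher and 0 were over 2-fold lower, beside 2.83% of all tested probes higher and 1.00% lower, so the count of the list is near that of the array. The median was 0.05. At 48 h, 1 was higher and 1, that of Rif1, over 2-fold lower, beside 3.17% of all tested probes higher and 1.19% lower. The probe that was higher at both times was 1 of 2 for Dux, a homeobox activator of 2C genes, with 1.25 at 72 h and 1.46 at 48 h as lower bounds. It was not well above background in untreated and control siRNA cells. It thus passed the filter through the Rif1 siRNA arrays alone and could be counted only as higher. Its levels were 0.0435 at 48 h and 0.0377 at 72 h, while the other Dux probe was at 0.38 and 0.37. The symbols Duxf3 and Nelfa name no probe here.

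Other regulators stayed within 2-fold. Dppa2, an activator of Dux, was at 0.59 and 0.49 on its 2 probes at 72 h, and its partner Dppa4 at -0.31 to -0.04 on 3. Tbx3, a T-box factor tied to Zscan4 levels, was at 0.83 at 48 h and at 0.26 at 72 h. Among repressors, Kdm1a, a histone demethylase, was at -0.11 at 72 h, Chaf1a, a subunit of the chromatin assembly factor CAF-1, at -0.08, Trim28 at -0.06 and Setdb1 at 0.16.

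Genes tied to what Zscan4 does in ES cells form a list of 13 genes with 21 probes, 19 of which passed. None of the 19 was counted as over 2-fold higher or lower than with control siRNA at 72 h or at 48 h. For the Pot1a probe A_66_P106584, dim with control siRNA, the lower bounds were 0.15 at 72 h and 0.68 at 48 h. These do not settle whether it passed 2-fold. Over all tested probes, 2.83% were higher and 1.00% lower at 72 h, and 3.17% and 1.19% at 48 h, so that a count of 0 among 19 is near that of the array. The medians were -0.08 and -0.07. The telomere proteins Terf1, Terf2, Tinf2 and Acd lay between -0.15 and 0.04 at 72 h, and the brightest Pot1a probe was at 0.09. Tert, the catalytic subunit of telomerase, was at 0.04. Dnmt1 and Uhrf1, which maintain DNA methylation, lay between -0.16 and 0. The most extreme at 72 h was Smc1b, a cohesin subunit of meiosis, at -0.43, with levels of 1.41, 0.966, 0.730 and 0.716 from untreated cells to 72 h. Dmc1, a recombinase of meiosis, was at -0.18 to -0.08, and the probe of Spo11, which makes meiotic breaks, was not well above background on any array.

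The wider family of SCAN domain genes had 25 genes with 38 probes by symbol, of which 35 passed and 33 had a difference at 72 h, and 0 were over 2-fold higher or lower at either time, where the same shares of all tested probes apply. The median was 0.01 at 72 h and -0.04 at 48 h. For Zscan25, dim with control siRNA, the 0.075 at 72 h is a lower bound, which does not settle whether it passed 2-fold. Differences at 72 h ran from -0.25 (Zkscan6) to 0.50 (Zkscan8). Zscan10, an ES cell zinc finger protein, had levels of 8.53, 7.08, 7.19 and 6.38 on its brighter probe, a difference of -0.15. The test of a difference between this list and the Zscan4 probes is not possible with 1 array per condition.

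**Figure D4:**
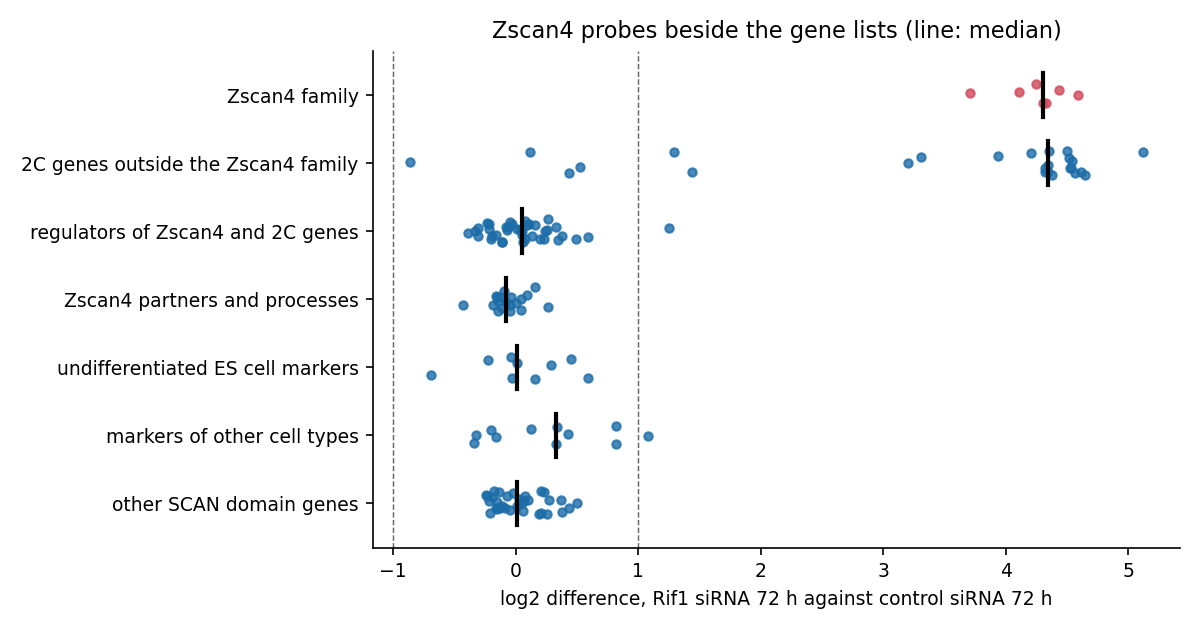
Log2 difference of Rif1 siRNA at 72 h from control siRNA at 72 h for the 7 Zscan4 probes (red) and the probes of 6 gene lists (blue) that have a value, with the median of each list as a black line and dashed lines at 2-fold. The medians are 4.30 for the Zscan4 probes, 4.35 for the other 2C genes (7 of 25 drawn at their lower bound) and between -0.08 and 0.33 for the other lists.

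The labelled cell type was checked against markers. All 9 probes of Pou5f1, Sox2, Nanog, Zfp42, Esrrb and Klf4 passed the filter, and their summed level was 151, 158, 175 and 168 in the order from untreated cells to 72 h. None was over 2-fold higher or lower than with control siRNA at 48 h or 72 h, a count near that of the array, where 2.83% of all tested probes were higher and 1.00% lower at 72 h, and 3.17% and 1.19% at 48 h. The median of the 9 was 0.01 at 72 h, with Pou5f1 highest at 0.59 and the dimmest of 3 Nanog probes lowest at -0.69, while the brightest Nanog probe was at 0.29, the brighter Esrrb probe at -0.23, Klf4 at -0.04 and Zfp42 at -0.03. The 11 probes for markers of fibroblasts, trophoblast and endoderm had a summed level of 2.24 to 2.76 on the 4 arrays, and 1 of them was over 2-fold higher at 72 h, beside 2.83% of all tested probes. This was Cdx2, with levels of 0.0344, 0.0500, 0.0721 and 0.106, a difference of 1.08, and Col1a1 and Col1a2 were both at 0.82. The endoderm markers lay lower at 72 h, with Gata6 at -0.34, Gata4 at -0.32 and the 2 Sox17 probes at -0.16 and -0.20. The median of the 11 probes was 0.33 at 72 h and 0.50 at 48 h. At 48 h the same Sox17 probes were higher, at 0.50 and 0.24, while Gata6 was at -0.01 and Gata4 at -0.16. Col3a1 was well above background on 2 of the arrays only. Its difference of 0.34 at 72 h is a lower bound, which does not settle whether it passed 2-fold. The part of such cells in the Zscan4 levels was not tested. The share of spots well above background was 58.8% (untreated), 62.8% (control siRNA), 71.5% (Rif1 siRNA, 48 h) and 74.1% (72 h). These shares rise in the same order as the Zscan4 levels, and their part in those levels was not tested either.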

How the data were processed

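Total RNA of the 4 cultures was labelled with Cy3 and hybridized to 1-colour Agilent arrays on one slide, so batches were not examinable. The authors deposited the output of Agilent Feature Extraction 11.5.1.1, run with default settings, in which the intensity of each spot is given raw and after background subtraction and detrending (the processed signal). They also deposited a value table in which each processed signal is a ratio, namely over the 75th percentile of that array. Here, the processed signal was divided by the 75th percentile over 43020 non-control spots of its array, outlier spots were left out, spots of a probe were averaged on the log2 scale, and differences were taken on that scale. A probe passed the filter if it was at or above the 20th percentile on an array and detected or compromised on at least 2. Where a probe was well above background on only 1 of 2 arrays, the difference is a lower bound, taken against the lowest level well above background or the probe's own, if higher. Counts use a 2-fold threshold.

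No test was run, since each condition has 1 array, and precision is limited by the number of arrays. The steps were tested on simulated data. Named were all members, Rif1, list genes by count with those over 2-fold at both times and the extremes, neighbours on chromosome 7 within 500 kb, and the 10 probes with the most similar pattern, beside some list genes named for their known role. The members and lists were chosen with earlier results of these data known. Alternatives were quantile normalization and normexp with an offset of 50 (limma 3.58.1 in R 4.3.3), the deposited ratios, scaling by the median of probes well above background on all arrays, outlier spots kept, a 4-fold threshold, signals of dim probes as given, and means or gene-wise medians. Python 3.11.15 with pandas 2.3.3 and Biopython 1.88 was used. Probe positions are on mm9, as in the array files, and promoters and gene names are from RefSeq on GRCm38.p6; positions were not converted between them. The second experiment named in the methods was not analysed here.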

Additional observations from a re-analysis of the deposited data

How the results depend on the processing

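No paired analysis was possible because there is only 1 array for each condition. All 42 alternative values of the family medians kept their direction and moved by less than 0.253 (log2), the SD between the control siRNA and untreated arrays over 22518 probes, which is not a replicate SD. For 72 h against 48 h this limit is larger than the median itself, 0.24. The deposited ratios and the kept outlier spots gave the same medians as the main setting, so they add no check. The medians ranged from 4.21 to 4.38 for Rif1 siRNA at 72 h against control siRNA, from 4.02 to 4.13 for 48 h, from 0.19 to 0.25 for 72 h against 48 h, and from 1.07 to 1.11 for control siRNA against untreated cells. Of 42 alternative counts over 2-fold, 41 stayed within 1.5 times. The exception was control siRNA against untreated cells, where 0 of the 7 probes passed 4-fold. Under normexp 5 passed 2-fold, and under the other normalizations 6. Taking dim signals as given could not change these counts, since no member was dim. Levels of A_52_P363843 (Zscan4c) depended on the background correction, with -1.76 in untreated cells and -0.84 with control siRNA under normexp on the log2 scale. The median over all tested probes against control siRNA was -0.05 at 72 h and -0.12 under normexp. The count of neighbours over 2-fold was 3 within the span of the members and 4 within 1000 kb on each side. Signal over background did not limit the members, all well above background.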

Other observations

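When the window was widened from 500 kb to 1000 kb on each side of the members, 1 further probe was over 2-fold higher at 72 h of Rif1 siRNA than with control siRNA. This was A_55_P2026705, a probe without a gene name 783 kb from the Zscan4f probe, which was not well above background in untreated and control siRNA cells. It passed the filter through the Rif1 siRNA arrays alone. Its levels were 0.0993 at 48 h and 0.116 at 72 h, at least 2.86 (log2) above the control siRNA array at 72 h. In the comparison of patterns over the 4 arrays, 78 probes outside the family lay nearer to the member medians than the Zscan4f probe did.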
